A study of Mus musculus with 6 samples.

Results

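Homeostatic microglia genes are the genes by which resting microglia of the central nervous system are usually recognised. The 9 genes described here were Sall1, Csf1r, P2ry12, Cx3cr1, Trem2, Siglech, Fcrls, Tmem119 and Aif1, taken by gene name from bulk-seq of whole spinal cord. The rule that picked them used gene names only. All 9 were found among the 25576 genes listed above 0 in at least 1 library, all 9 were above 0 in each of the 6 libraries, and all 9 passed the filter that left 17088 genes for testing. The study compared the cords of severe (type I) Taiwanese SMA mice with those of heterozygous control mice at postnatal day 4 (P4), with 3 libraries per group. SMA mice were Smn-/- and control mice Smn+/-. Both groups were on the FVB strain, and both carried the human SMN2 transgene as 2tg/0, so the control mice were neither wild type nor free of the transgene. The study describes bulk-seq in triplicates with 1 per group, and nothing shows that the libraries of a group came from separate animals, so a p-value here measures only the spread between libraries.

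Values are FPKM, fragments scaled to the exon length of the gene and to all mapped fragments of the library, so that levels can be compared between genes per length. Differences are SMA minus control on the log2(FPKM + 1) scale, where the change of a gene with few FPKM appears smaller than it is. They were tested with limma, which fits each gene and moderates its variance, and Benjamini-Hochberg adjustment covered every gene tested. An exact two-sided permutation test over the libraries was added for single genes. It cannot give a p below 0.1 with 3 libraries against 3, or below 0.2 with 3 against 2, so a p of 0.2 without control replicate 2 is the smallest possible there.

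Control replicate 2 stood apart from the other 5 libraries. Its correlation of log2(FPKM + 1) with the others, across genes, was between 0.836 and 0.849, while the lowest correlation among the other 5 was 0.983. A list of 10 hepatocyte genes held 6.97% of its summed FPKM and between 0.0127% and 0.0276% in the other libraries. Albumin (Alb), the most abundant gene of that list, was at 15895 FPKM in control replicate 2 and between 24.6 and 56.2 FPKM in the rest. The comparisons of the members and of the lists are therefore given with and without this library. The number of genes listed was 21418, 22161 and 21197 in control replicates 1, 2 and 3 and 22237, 22201 and 22296 in SMA replicates 1, 2 and 3. Depth in reads is unknown because FPKM holds no counts, but the spacing of the lowest values placed the relative depths between 1 and 1.16. Spinal cord genes were present in every library, with neuronal Tubb3 between 177.6 and 378.4 FPKM and astrocytic Gfap between 117.1 and 166.8 FPKM.

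Smn1, the gene knocked out in this model, had values of 10.4, 8.64 and 11.9 FPKM in control replicates 1, 2 and 3 and of 8.48, 9.30 and 11.1 FPKM in SMA replicates 1, 2 and 3. The groups overlapped, and the log2 difference was -0.09 (95% interval -0.45 to 0.27, limma adjusted p = 0.819) and -0.20 without control replicate 2 (adjusted p = 0.614). A value for the whole gene does not tell which exons were present, so the genotype labels were not checked by it, and the libraries are named by their labels.

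Microglia are the resident macrophages of the central nervous system. They arise from yolk sac progenitors, settle in the nervous system before birth and in the young spinal cord clear dying cells and excess synapses. In their resting state they express a set of surface receptors with which they sense nucleotides, chemokines and lipids, and several of these, P2ry12 and Tmem119 among them, are lowered when the cells respond to injury or disease. In bulk tissue such as this, fewer microglia and less RNA of a gene per microglial cell cannot be told apart.

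The 9 genes formed a high and a low tier (plot of members by library). P2ry12, Sall1, Csf1r and Cx3cr1 had means over the 6 libraries between 9.31 and 14.5 FPKM. Aif1, Trem2, Fcrls, Siglech and Tmem119 had means between 2.14 and 2.96 FPKM. The lowest value of the upper tier was 8.27 FPKM, and the highest value of the lower tier was 4.32 FPKM. The step between Cx3cr1 and Aif1 was the only step in this order whose ranges did not overlap, and Cx3cr1 was above Aif1 in 6 of 6 libraries. Within the tiers neighbouring genes were not separated beyond their spread: P2ry12 was above Sall1 in 5 of 6 libraries, Sall1 above Csf1r in 4 of 6, and Aif1 above Trem2 in 3 of 6. P2ry12 ranked at the top of the 9 genes in every library except control replicate 2, where Csf1r did. Summed over the 9 genes, the level was 64.3, 61.1 and 59.7 FPKM in control replicates 1, 2 and 3 and 61.4, 62.1 and 58.7 FPKM in SMA replicates 1, 2 and 3. The sum thus differed little between libraries, and its coefficient of variation without control replicate 2 was 3.59%.

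**Figure D1:**
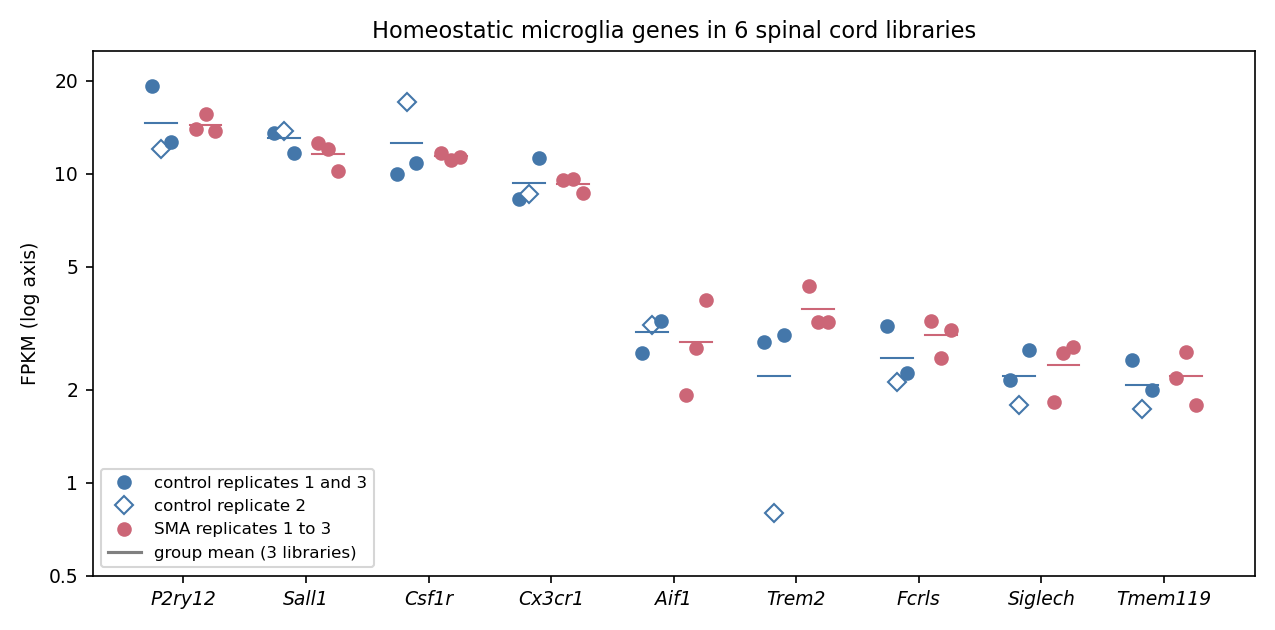
FPKM of the 9 homeostatic microglia genes in each library on a log axis, with horizontal lines at the mean of the 3 libraries of each group. P2ry12, Sall1, Csf1r and Cx3cr1 lie above the other 5 genes in every library, and the open diamond of control replicate 2 stands lowest for Trem2 (0.8 FPKM) and highest for Csf1r (17 FPKM).

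Sall1 encodes the zinc finger transcription factor that holds microglia in their resting identity. In the developing nervous system it is also expressed by neural progenitors, so its level in whole cord is not that of microglia alone. It was measured at 13.5, 13.7 and 11.7 FPKM in control replicates 1, 2 and 3 and at 12.6, 12 and 10.2 FPKM in SMA replicates 1, 2 and 3. SMA replicate 3 was the lowest library, and the others overlapped between the groups. The log2 difference was -0.15 (95% interval -0.43 to 0.13, limma adjusted p = 0.683, exact permutation p = 0.3), and it was -0.11 without control replicate 2. Sall1 was lower in the SMA libraries under all 16 alternative settings, between -0.27 and -0.07, and passed an unadjusted p of 0.05 in none. Some of these settings, such as another filter or the replicate number as a block, cannot change the difference itself, so their sign was fixed in advance. In GENCODE M21 its gene lies on the minus strand at chr8:89027235-89044162 of GRCm38.

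Csf1r encodes the receptor tyrosine kinase on which microglia depend for survival. Kupffer cells and other tissue macrophages carry it as well. It was at 9.97, 17.0 and 10.8 FPKM in control replicates 1, 2 and 3 and at 11.7, 11.1 and 11.3 FPKM in SMA replicates 1, 2 and 3. Control replicate 2 was far above every other library, whose values lay between 9.97 and 11.7 FPKM. With it the groups overlapped and the log2 difference was -0.10 (95% interval -0.56 to 0.35, adjusted p = 0.834). Without it the SMA libraries were all above the control libraries, and the log2 difference was 0.12 (95% interval -0.08 to 0.31, limma adjusted p = 0.661, exact permutation p = 0.2). The files give Csf1r the same span as the neighbouring gene Hmgxb3, so how the authors' software divided fragments there was not tested.

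P2ry12 and Cx3cr1 encode the receptors through which microglia read ADP and the neuronal chemokine fractalkine. P2ry12 was at 19.2, 12 and 12.7 FPKM in control replicates 1, 2 and 3 and at 14.0, 15.6 and 13.7 FPKM in SMA replicates 1, 2 and 3. Its highest and lowest values were both in control libraries, and the SMA libraries fell between them. The log2 difference was 0.00 (95% interval -0.43 to 0.44, adjusted p = 0.992), an interval that runs from 0.74-fold to 1.35-fold of FPKM + 1. It was -0.11 without control replicate 2 (adjusted p = 0.843). Cx3cr1 was at 8.27, 8.59 and 11.2 FPKM in control replicates 1, 2 and 3 and at 9.56, 9.63 and 8.63 FPKM in SMA replicates 1, 2 and 3. Here too the control libraries enclosed the SMA libraries. The log2 difference was 0.00 (95% interval -0.32 to 0.32, adjusted p = 0.998), or 0.80-fold to 1.24-fold of FPKM + 1, and -0.05 without control replicate 2 (adjusted p = 0.919). The files give each of these genes a span shared with neighbours, 8 other genes for P2ry12 (among them P2ry13 and Med12l) and 5 for Cx3cr1. In GENCODE M21 P2ry12 itself lies at chr3:59216272-59262871 and Cx3cr1 at chr9:119901616-120069879, both on the minus strand.

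Trem2, a receptor for lipids and lipoproteins that drives phagocytosis and signals through the adaptor Tyrobp, was the only member whose groups did not overlap in the 6 libraries. It was at 2.86, 0.80 and 3.00 FPKM in control replicates 1, 2 and 3 and at 4.32, 3.31 and 3.30 FPKM in SMA replicates 1, 2 and 3. All SMA libraries were above all control libraries, and control replicate 2 was at 0.238 of the mean of the other 5. The log2 difference was 0.61 (95% interval -0.16 to 1.37, limma adjusted p = 0.683, exact permutation p = 0.1, the smallest this design allows). Without control replicate 2 the groups still did not overlap, and the log2 difference was 0.23 (95% interval -0.10 to 0.57, limma adjusted p = 0.611, exact permutation p = 0.2). Over all genes tested, 10.3% had every SMA library above every control library, and 14.2% without control replicate 2.

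Siglech, Fcrls, Tmem119 and Aif1 made up the rest of the low tier. Siglech, a sialic acid-binding receptor that plasmacytoid dendritic cells also carry, was at 2.15, 1.79 and 2.68 FPKM in control replicates 1, 2 and 3 and at 1.82, 2.62 and 2.75 FPKM in SMA replicates 1, 2 and 3. The groups overlapped, with a log2 difference of 0.08 (95% interval -0.34 to 0.50, adjusted p = 0.86). The plasmacytoid dendritic cell genes Ccr9, Cox6a2 and Ly6d were together between 0 and 0.788 FPKM in each library. Fcrls, an Fc receptor-like protein of microglia, was at 3.21, 2.12 and 2.27 FPKM in control replicates 1, 2 and 3 and at 3.34, 2.53 and 3.12 FPKM in SMA replicates 1, 2 and 3. The SMA mean was the higher at 3.00 ± 0.418 FPKM against 2.53 ± 0.589 FPKM (SD, n = 3), with overlapping libraries and a log2 difference of 0.18 (95% interval -0.21 to 0.58, adjusted p = 0.688).

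Tmem119, a transmembrane protein by which microglia are told from infiltrating macrophages, had the lowest mean of the 9 genes over the 6 libraries. It was at 2.50, 1.73 and 1.99 FPKM in control replicates 1, 2 and 3 and at 2.18, 2.65 and 1.78 FPKM in SMA replicates 1, 2 and 3, and the groups overlapped. The log2 difference was 0.06 (95% interval -0.34 to 0.46, adjusted p = 0.895). Aif1 encodes Iba1, the calcium- and actin-binding protein stained to show microglia and other macrophages. It was at 2.62, 3.25 and 3.34 FPKM in control replicates 1, 2 and 3 and at 1.92, 2.73 and 3.90 FPKM in SMA replicates 1, 2 and 3. The SMA libraries spread more widely than the control libraries and held both the lowest and the highest value. The log2 difference of Aif1 was -0.11 (95% interval -0.60 to 0.39, adjusted p = 0.843). Without control replicate 2 the log2 differences were -0.01 for Siglech, 0.10 for Fcrls, -0.02 for Tmem119 and -0.07 for Aif1, with limma adjusted p-values from 0.866 to 0.982.

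The promoters of the members were searched for the PU-box, the site of the myeloid transcription factor PU.1 (encoded by Spi1), written as GAGGAA on either strand. The windows were RefSeq promoters of GRCm38.p6, from 250 bases before to 50 bases after each start. Of the 9 members, 7 were matched by symbol with 9 windows, 3 of them of Sall1, and Tmem119 and Csf1r were not matched. The letters were present in 4 of the 9 windows (44.4%), those of Trem2, Siglech, Aif1 and Fcrls, and in 9289 of all 32851 windows (28.3%). Among the other lists they were present in 71.4% of the windows of genes shared by macrophages of all tissues, 63.6% of border macrophage, 58.3% of monocyte and neutrophil and 57.1% of Kupffer cell genes. The share was 47.1% for activation genes, 43.8% for ligands and signalling, 40% for transcription factors and for inflammatory genes, 30% for other genes of resting microglia, 26.1% for neural and 10% for hepatocyte genes, and 0 of 2 windows of plasmacytoid dendritic cell genes held them. The windows of Trem2, Siglech and Aif1 are shown because in each the match begins close before the start site, at -40, -4 and -7 bases, on the reverse strand (TTCCTC, in capitals). They lie at chr17:48346151-48346450 (plus strand), chr7:55767934-55768233 (plus strand) and chr17:35176003-35176302 (minus strand), and each is written from 5' to 3' along its gene. A match of letters describes the sequence and does not show binding.
Trem2: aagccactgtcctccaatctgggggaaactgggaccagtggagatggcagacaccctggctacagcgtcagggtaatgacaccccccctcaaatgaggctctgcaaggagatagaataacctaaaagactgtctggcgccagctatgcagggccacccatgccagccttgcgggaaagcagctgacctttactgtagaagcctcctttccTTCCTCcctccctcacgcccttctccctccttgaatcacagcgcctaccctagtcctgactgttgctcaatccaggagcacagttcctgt
Siglech: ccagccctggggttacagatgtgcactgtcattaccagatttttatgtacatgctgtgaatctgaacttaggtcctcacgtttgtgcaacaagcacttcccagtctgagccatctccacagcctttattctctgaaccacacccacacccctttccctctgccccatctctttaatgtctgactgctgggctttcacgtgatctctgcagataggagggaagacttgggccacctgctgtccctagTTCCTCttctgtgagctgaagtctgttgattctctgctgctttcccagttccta
Aif1: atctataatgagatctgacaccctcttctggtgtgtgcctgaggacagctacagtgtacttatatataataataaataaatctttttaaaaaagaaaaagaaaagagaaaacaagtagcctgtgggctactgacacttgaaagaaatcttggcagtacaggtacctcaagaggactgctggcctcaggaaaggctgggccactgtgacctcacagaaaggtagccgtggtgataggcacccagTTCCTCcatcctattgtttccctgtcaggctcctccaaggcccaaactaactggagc

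None of the 9 members differed between the groups by any of the thresholds used (plot of differences with intervals). At an unadjusted p under 0.05 in limma, 0 of the 9 were lower, against 2.39% of all genes tested, and 0 were higher, against 3.40%. With a fold over 2 in addition, 0 of 9 were called, against 0.170% of all genes. No gene of the 17088 passed an adjusted p of 0.05 (0%), and the smallest adjusted p was 0.683. In groups that did not overlap, 1 of 9 members was higher, against 10.3% of all genes, and 0 were lower, against 6.67%. The members' estimates were lower in 4 and higher in 5 of 9, with a median log2 difference of 0.00 beside a median of 0.04 over all genes tested. Each interval of the 6-library comparison other than that of Trem2 lay within a fold of 2 of FPKM + 1 in both directions. For the low tier the same interval is wider as a fold of FPKM.

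Without control replicate 2, 16574 genes were tested, and again 0 of 9 members passed an unadjusted p of 0.05 in limma. Over all genes 5.20% were lower and 5.27% were higher at that threshold, and 0.139% passed with a fold over 2. An adjusted p under 0.05 was reached by 2 genes (0.0121%), the small RNA genes Snora74a and Rpph1, named after their values were seen. In groups that did not overlap, 2 of 9 members, Trem2 and Csf1r, were higher, against 14.2% of all genes, and 0 of 9 were lower, against 13.9%. The members' estimates were lower in 6 and higher in 3 of 9, with a median of -0.02 beside 0.00 over all genes. The change of sign from the 6-library comparison concerned P2ry12, Tmem119, Csf1r, Siglech.

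**Figure D2:**
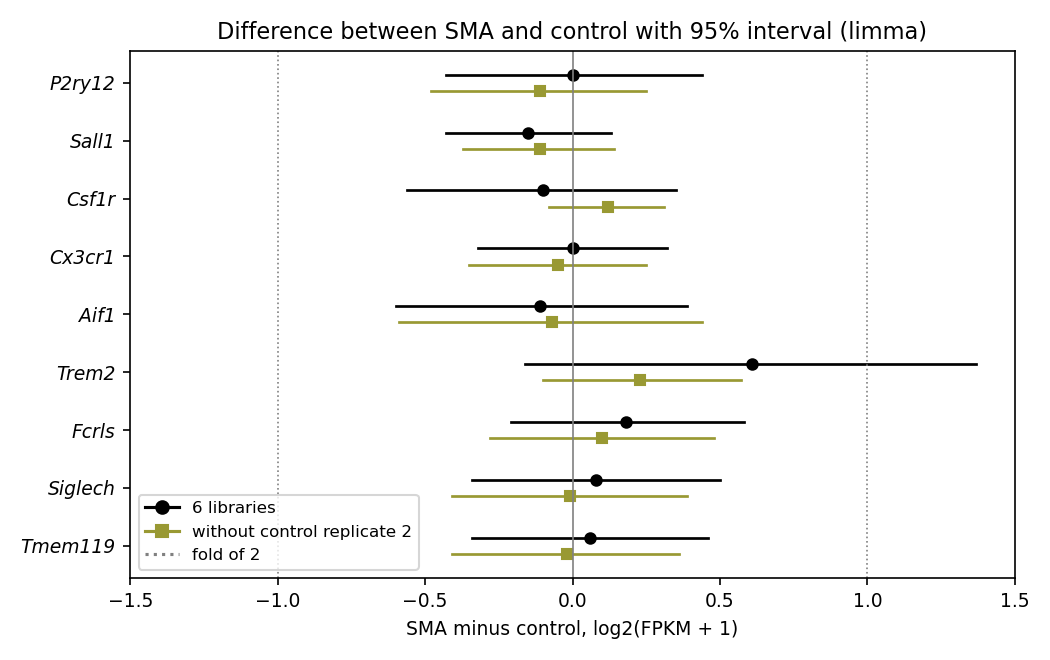
Difference between SMA and control of each member on the log2(FPKM + 1) scale with its 95% interval from limma, for 6 libraries and without control replicate 2. All intervals include 0, and only that of Trem2 over 6 libraries (-0.16 to 1.37) passes the dotted line of a fold of 2.

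In control replicate 2 the members departed from the other libraries in both directions, as did genes in general (plot of control replicate 2 against the other libraries). Of the 9 members, 5 were lower in it than in each of the other 5 libraries: P2ry12, Tmem119, Trem2, Fcrls and Siglech. Another 2, Csf1r and Sall1, were higher than in each, Sall1 only by 13.7 against at most 13.5 FPKM. Of 17076 tested genes, 7665 were lowest and 4201 highest in this library, so these counts are not particular to the members. The ratio of control replicate 2 to the mean of the other 5 was 0.734 for Fcrls, 0.747 for Siglech, 0.778 for Tmem119 and 0.802 for P2ry12. A list of 28 neuronal and glial genes, with Meg3, Mbp and Fabp7 the most abundant, had a ratio of 0.729 in its summed FPKM, and 24 of the 28 were lowest in this library. Cx3cr1 had a ratio of 0.909, Aif1 of 1.12, Sall1 of 1.14 and Csf1r of 1.55. Trem2 was far below the neural list, at 0.238. When FPKM were rescaled to the neural list, the ratios were 1.03 for Fcrls, 1.05 for Siglech, 1.09 for Tmem119, 1.13 for P2ry12 and 1.28 for Cx3cr1. They were 1.58 for Aif1, 1.61 for Sall1 and 2.18 for Csf1r, and 0.334 for Trem2. In the comparison of the groups, the neural list had 7 lower and 21 higher estimates with a median of 0.15, and 17 lower and 11 higher with a median of -0.05 without control replicate 2. Without that library 3 of its genes were lower at an unadjusted p under 0.05 (Fabp7, Aqp4 and Pdgfra) and 2 higher (Dcx and Syt1), against 5.20% and 5.27% of all genes. Of these, Fabp7, a lipid carrier of radial glia, had the largest difference of them at -0.50 (limma adjusted p = 0.176), against -0.30 over 6 libraries. Over the 17076 tested genes that were above 0 in at least 1 of the other 5 libraries, the median ratio as listed was 0.886. It was 0.802 over the members.

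**Figure D3:**
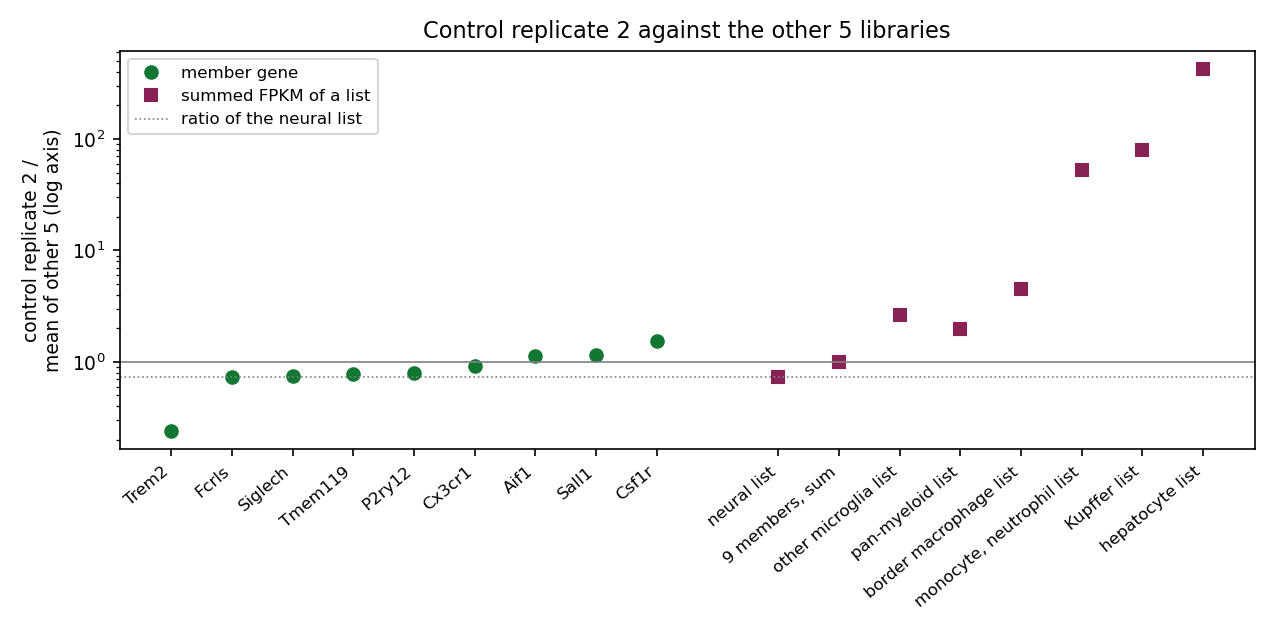
Ratio of control replicate 2 to the mean of the other 5 libraries on a log axis, for each member (circles) and for the summed FPKM of gene lists (squares). Fcrls, Siglech, Tmem119 and P2ry12 lie near the dotted line of the neural list (0.729), while Trem2 lies at 0.238 and the hepatocyte list at 426.1.

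The myeloid cells of liver and blood were looked at through further lists, for which the sum of FPKM in each library is given. The 7 Kupffer cell genes summed to 0.961, 51.8 and 0.369 FPKM in control replicates 1, 2 and 3 and to 0.796, 0.588 and 0.539 FPKM in SMA replicates 1, 2 and 3. The most abundant by the mean of 6 libraries was Marco, a scavenger receptor, at 12.3 FPKM in control replicate 2 and at most 0.104 FPKM elsewhere, followed by Cd5l at 11.8 FPKM and Fcna at 9.33 FPKM in that library. Of the 7 genes, 2, 0 and 5 were at 0 in control replicates 1, 2 and 3 and 4, 2 and 3 in SMA replicates 1, 2 and 3. Clec4f, Vsig4, Clec1b and Timd4 were at 9.06, 4.13, 3.01 and 2.18 FPKM there. Outside control replicate 2, Fcna was between 0.266 and 0.715 FPKM and made up most of the sum, while each of the other 6 genes was at 0 in at least 1 library and at most 0.146 FPKM. The 10 monocyte and neutrophil genes summed to 13.4, 435.2 and 7.71 FPKM in the control replicates and to 6.24, 7.29 and 6.95 FPKM in the SMA replicates, with S100a8, S100a9 and Ngp the most abundant at 205.4, 99.5 and 37.9 FPKM in control replicate 2. Over 6 libraries 6 Kupffer cell genes and 9 monocyte and neutrophil genes were tested, and 0 passed an unadjusted p of 0.05 in limma. Without control replicate 2 no Kupffer cell gene and 4 monocyte and neutrophil genes passed the filter, so the direction of the rest over 6 libraries was set by that library and is not counted. All 4 had lower estimates without it, with a median of -0.50. Of these, Plac8 and Camp reached the mean of 0.5 FPKM only through the control libraries. Their means without control replicate 2 were 1.19 and 1.05 FPKM in control libraries and 0.328 and 0.407 FPKM in SMA libraries. The filter thus favoured lower estimates, so neither this direction nor a p-value of these 2 genes is read as a result. Plac8 was at a log2 difference of -0.71 against -1.49 over 6 libraries, and Camp at -0.54 against -1.79.

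Border macrophages, which line the meninges and vessels of the cord, were represented by 9 genes. Their sum was 10.4, 48.5 and 14.1 FPKM in control replicates 1, 2 and 3 and 14.7, 8.19 and 6.34 FPKM in SMA replicates 1, 2 and 3. Stab1 was the most abundant by the mean of 6 libraries, with Pf4 above it in control replicate 2 (17.6 against 12.5 FPKM), and the mannose receptor Mrc1 was at 1.90, 10.4 and 2.24 FPKM in the control replicates and at 2.27, 1.87 and 0.992 FPKM in the SMA replicates. All 5 genes of this list that were tested had lower estimates in SMA, with a median log2 difference of -0.78, and of -0.23 without control replicate 2. Genes that the filter removed did not all share this direction. Without control replicate 2, Cbr2, Ms4a7 and Cd163 had means of 0.442, 0.119 and 0.205 FPKM in SMA and of 0.0492, 0.0338 and 0.167 FPKM in control libraries. Folr2 was at 0.252 FPKM in SMA and 0.262 FPKM in control libraries. None passed an unadjusted p of 0.05 in either comparison. The 10 hepatocyte genes, with Alb, Ahsg and Afp the most abundant, summed to 81.8, 28817 and 55.0 FPKM in the control replicates and to 46.5, 100.6 and 54.3 FPKM in the SMA replicates. All 10 had lower estimates in SMA with control replicate 2 (median log2 difference -2.57), a direction set by that library and not read as a result. Without it there were 4 lower and 6 higher estimates (median 0.16). Of the higher, Cps1 then reached the mean of 0.5 FPKM only through the SMA libraries, at 0.564 FPKM against 0.405 FPKM in control libraries. Its direction is not read as a result. What part RNA of liver or blood cells has in the values of Csf1r, Aif1, Sall1 and Trem2 in control replicate 2 was not tested.

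Ligands and partners of the members were measured in the same libraries (plot of ligands, partners and related genes). Csf1 and Il34 encode the ligands of Csf1r. Csf1 was at 4.17, 4.59 and 3.93 FPKM in control replicates 1, 2 and 3 and at 3.31, 3.76 and 3.37 FPKM in SMA replicates 1, 2 and 3. All SMA libraries were below all control libraries, as in 6.67% of all genes tested. The log2 difference was -0.22 (95% interval -0.49 to 0.04, limma adjusted p = 0.683, exact permutation p = 0.1) and -0.17 without control replicate 2 (adjusted p = 0.65). Il34 was at 1.19, 0.992 and 2.00 FPKM in the control replicates and at 2.00, 1.37 and 0.861 FPKM in the SMA replicates. The groups overlapped, with a log2 difference of 0.00 (95% interval -0.58 to 0.58) and of -0.12 without control replicate 2. Cx3cl1, the fractalkine ligand of Cx3cr1 that neurons make, was at 29.4, 16.7 and 32.6 FPKM in the control replicates and at 27.9, 35.6 and 32.5 FPKM in the SMA replicates. Control replicate 2 was its lowest library, as for 24 of the 28 genes of the neural list, and the log2 difference of 0.32 (adjusted p = 0.683) became 0.04 without it.

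Tyrobp, the adaptor that carries the signal of Trem2 and Siglech, was at 9.37, 20.2 and 7.38 FPKM in control replicates 1, 2 and 3 and at 8.51, 9.86 and 7.80 FPKM in SMA replicates 1, 2 and 3. In control replicate 2 it thus stood at 2.35 of the mean of the others, the reverse of Trem2 at 0.238. Its log2 difference was -0.34 (adjusted p = 0.702) and 0.06 without that library (adjusted p = 0.912). Tgfb1, the cytokine that maintains the resting state of microglia, was at 2.85, 7.23 and 2.84 FPKM in the control replicates and at 1.98, 2.63 and 1.88 FPKM in the SMA replicates. The groups did not overlap, and the log2 difference was -0.66 (95% interval -1.40 to 0.09, limma adjusted p = 0.683, exact permutation p = 0.1) and -0.29 without control replicate 2 (adjusted p = 0.549). Of the 17 genes of ligands and signalling, 15 were tested, and 10 had lower and 5 higher estimates with 0 past an unadjusted p of 0.05. Without control replicate 2 the numbers were 11 and 4, and Cd200, a neuronal protein that restrains microglia, was lower at a log2 difference of -0.17 (unadjusted p = 0.0194, limma adjusted p = 0.405), against 0.11 over 6 libraries. Of all genes, 5.20% were lower at an unadjusted p under 0.05 without that library. Cd200 together with Cd47 and Sirpa, which restrain phagocytosis, made up the most abundant genes of this list. In groups that did not overlap over 6 libraries, Csf1, Tgfb1, Nrros and Cd47 were lower in SMA, against 6.67% of all genes. Tgfbr1 was higher without overlap, against 10.3% of all genes.

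**Figure D4:**
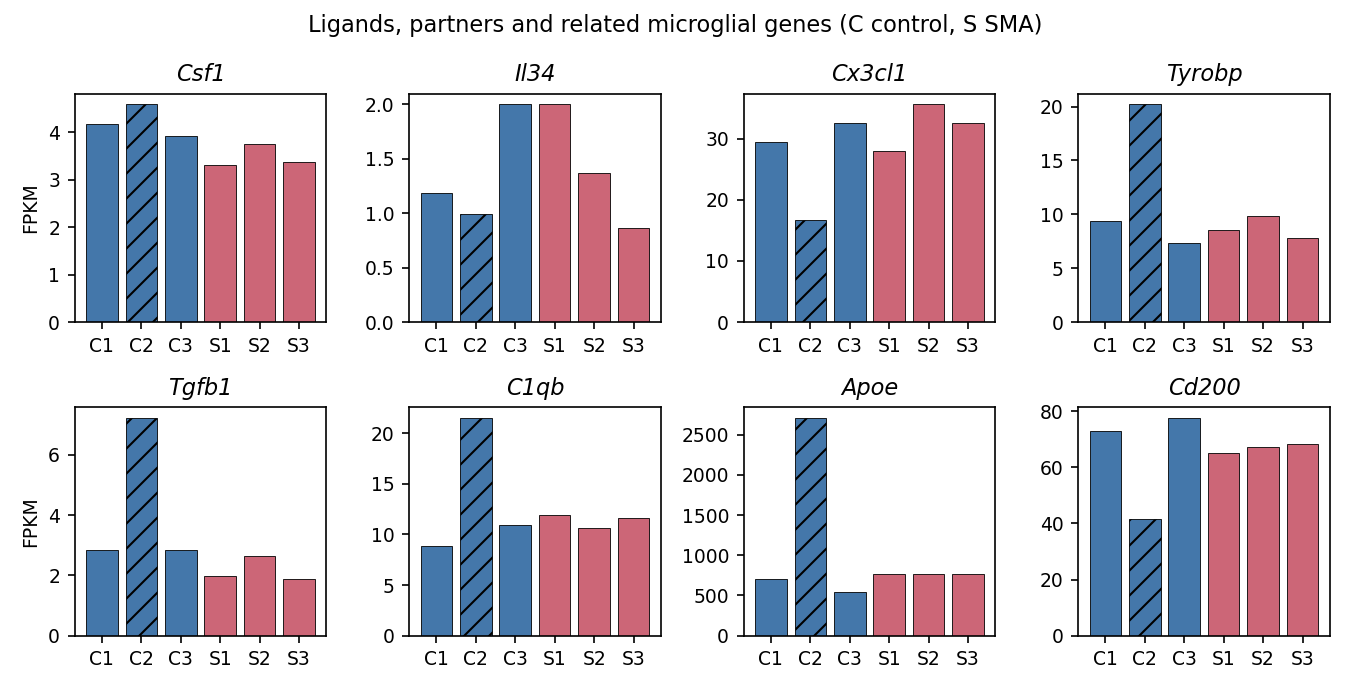
FPKM in each library of Csf1, Il34 and Cx3cl1 (ligands of members), Tyrobp (adaptor of Trem2) and the related genes Tgfb1, C1qb, Apoe and Cd200, with control replicate 2 hatched and a separate axis from 0 for each gene. Tyrobp, Tgfb1, C1qb and Apoe are highest in control replicate 2, and Cx3cl1 and Cd200 are lowest there.

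Of the transcription factors listed for the myeloid lineage, none passed an unadjusted p of 0.05 in limma with or without control replicate 2. Spi1 was at 1.56, 2.26 and 1.83 FPKM in control replicates 1, 2 and 3 and at 0.826, 0.739 and 1.89 FPKM in SMA replicates 1, 2 and 3. SMA replicates 1 and 2 were the lowest libraries, but SMA replicate 3 lay among the controls, and the log2 difference was -0.45 (95% interval -1.01 to 0.11, adjusted p = 0.683) and -0.36 without control replicate 2 (adjusted p = 0.629). It was -0.69 without SMA replicate 3, where limma's unadjusted p was 0.0138. Irf8 had a log2 difference of -0.34 (adjusted p = 0.683), and of -0.12 without control replicate 2. Of the 10 factors of the list, 6 had lower and 4 higher estimates over 6 libraries, with a median log2 difference of -0.02, and 7 lower and 3 higher without control replicate 2, with a median of -0.05. The most abundant were Mef2a, Maf and Sall3, which other cells of the cord also express. The groups did not overlap in 2 of the 10 over 6 libraries, 1 higher in SMA against 10.3% of all genes and 1 lower against 6.67%. Sall3 was at 14.8, 8.87 and 15.5 FPKM in control replicates 1, 2 and 3 and at 16.3, 16.3 and 16 FPKM in SMA replicates 1, 2 and 3. Cebpa, a factor of both myeloid cells and hepatocytes, was at 1.51, 15.6 and 1.44 FPKM in the control replicates and at 1.14, 1.01 and 0.724 FPKM in the SMA replicates. Both kept the same order of the groups when control replicate 2 was left out.

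A further 13 genes of resting microglia gave 10 lower and 3 higher estimates, with a median log2 difference of -0.10, and 7 lower and 6 higher with a median of 0.00 without control replicate 2. None passed an unadjusted p of 0.05 in limma in either comparison. Their sum was 28.1, 78.3 and 32.3 FPKM in control replicates 1, 2 and 3 and 30.7, 30.5 and 28.5 FPKM in SMA replicates 1, 2 and 3. In control replicate 2, 45.4 FPKM of it came from Rnase4, a secreted ribonuclease that hepatocytes make as well, which was at most 4.14 FPKM elsewhere. Next in abundance were Vsir, a checkpoint receptor, between 2.91 and 6.03 FPKM, and Mertk, a receptor for the uptake of dying cells, between 3.17 and 5.14 FPKM. Both were also highest in control replicate 2, and both overlapped between the groups.

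Genes shared by macrophages of all tissues were listed as 14 genes, and their sum was highest in control replicate 2. They summed to 56.9, 117.8 and 61.1 FPKM in control replicates 1, 2 and 3 and to 61.8, 62.8 and 54.0 FPKM in SMA replicates 1, 2 and 3. C1qb, a subunit of complement C1q, was at 8.82, 21.5 and 10.9 FPKM in the control replicates and at 11.9, 10.6 and 11.6 FPKM in the SMA replicates, and C1qa and cathepsin S (Ctss) were also highest in control replicate 2. In the 6 libraries 13 of the 14 genes had lower estimates in SMA, with a median log2 difference of -0.30 and 0 past an unadjusted p of 0.05 in limma. The counts were 7 lower and 7 higher without control replicate 2, with a median of 0.01. Cd14, counted as lower in both comparisons, reached the mean of 0.5 FPKM only through the control libraries. Its mean was 0.458 FPKM in SMA and 0.901 FPKM in control libraries, or 0.872 FPKM without control replicate 2. Its direction is not read as a result. At an unadjusted p under 0.05, Cyba, a subunit of the NADPH oxidase, was then lower at a log2 difference of -0.33 (limma adjusted p = 0.458, and -0.71 over 6 libraries). Ly86, a partner of a Toll-like receptor homologue, was higher at 0.41 (limma adjusted p = 0.476, and 0.23 over 6 libraries). Of all genes, 5.20% were lower and 5.27% higher at that threshold.

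Genes that microglia raise when they leave the resting state were listed as 16 genes, of which 12 were tested. All 12 had lower estimates in SMA over 6 libraries, with a median log2 difference of -0.38, while without control replicate 2 there were 9 lower and 3 higher with a median of -0.07. Ctsb, a lysosomal cathepsin, was at 60.8, 84.6 and 58.7 FPKM in control replicates 1, 2 and 3 and at 53.1, 51.7 and 49.9 FPKM in SMA replicates 1, 2 and 3. The groups did not overlap, and the log2 difference was -0.38 (unadjusted p = 0.0462, limma adjusted p = 0.683) and -0.21 without control replicate 2 (unadjusted p = 0.00702, adjusted p = 0.348). The unadjusted p was above 0.05 in 6 of the 16 alternative settings, up to 0.123 in limma without SMA replicate 3. Many other cells of the cord express Ctsb. Apoe, the lipid carrier made by astrocytes, microglia and hepatocytes, was at 703.8, 2710.1 and 539.2 FPKM in the control replicates and at 764.5, 771.5 and 773.5 FPKM in the SMA replicates. Its log2 difference was -0.39 (limma adjusted p = 0.791) with control replicate 2 and 0.32 without it (unadjusted p = 0.0215, adjusted p = 0.41), a turn of direction that rests on this library. Fabp5, the other abundant gene of the list, was between 75.2 and 79.5 FPKM outside control replicate 2. In groups that did not overlap over 6 libraries, Ctsb, Cd9 and Ctsl were lower in SMA, against 6.67% of all genes. No tested gene of the list was higher without overlap, against 10.3% of all genes. Outside control replicate 2, other genes of this list ranged widely. Cd9 was between 35 and 46 FPKM, Axl between 10.8 and 11.9, Igf1 between 9.37 and 11.3, Spp1 between 1.55 and 2.86, Lpl between 1.36 and 2.76 and Lgals3 between 0.541 and 1.08 FPKM, while Cst7, Itgax, Gpnmb and Clec7a were each at most 0.281 FPKM.

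Inflammatory genes were near 0. The sum of 8 cytokine and chemokine genes with Nos2 among them was 1.03, 4.89 and 0.856 FPKM in control replicates 1, 2 and 3 and 1.36, 0.490 and 1.00 FPKM in SMA replicates 1, 2 and 3. Cxcl10 gave 3.27 FPKM of the sum in control replicate 2 and was at most 0.253 FPKM elsewhere, and Ccl3 was at most 0.796 FPKM in any library. Of the 8 genes only Cxcl10 passed the filter, and no gene of the list was tested without control replicate 2.

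Among themselves the 9 members did not vary together across libraries. Of the 36 pairs, 17 had a positive Pearson correlation of log2(FPKM + 1) over the 6 libraries, with a median of -0.06 and a range from -0.85 to 0.80. Over the 5 libraries without control replicate 2, 13 pairs were positive and the median was -0.13. The mean of the members' centred values was therefore a shallow pattern, from -0.145 in control replicate 2 to 0.053 in SMA replicate 2. Trem2, at 0.80 FPKM in control replicate 2 and at least 2.86 FPKM elsewhere, had the largest part in the value of that library. Genes most like it over 6 libraries were Dzip3, Hcrtr2, Ptdss1, Cbln4 and Spin1, each with a Pearson r of at least 0.999, and each was lowest in control replicate 2. Of 15408 genes ranked, 2778 (18.0%) had an r over 0.9. Over the 5 libraries without it the most similar were Exoc3l2, Btf3, Gmds, Gm38387 and Lclat1 (r from 0.994 to 0.997), and 275 of 14880 genes (1.85%) had an r over 0.9. The 5 genes named over 6 libraries and the 5 named without control replicate 2 share none. With a pseudocount of 0.1 over 6 libraries, the first 5 were Spin1, Lin7a, Tmem255a, Chga and Spred2, of which only Spin1 was named above. These correlations over few libraries are descriptions without a test.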

How the data were processed

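Bulk-seq of whole spinal cord at P4 was used, with 3 libraries labelled SMA and 3 labelled control. The deposited values are FPKM per gene, which the authors computed for each library with cufflinks after hisat2 alignment. The libraries were depleted of ribosomal RNA and kept the strand. The submitters' processing notes name the build mm10, and versions and the annotation release are not given in the sources used here. Each file lists only genes above 0, and an absent gene was set to 0. Loci are counted here from base 1. Of the 25576 genes listed, 25408 (99.3%) were found in GENCODE M21 by identifier. Where overlapping genes share a span in the files, whether the authors counted by strand was not stated.

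Genes whose mean reached 0.5 FPKM were tested on log2(FPKM + 1) in limma 3.58.1 (lmFit, eBayes with a variance trend; R 4.3.3) without covariates. The p-values were two-sided, and Benjamini-Hochberg adjustment covered every gene tested. The study's methods use read counts with DESeq, which were not used here. The thresholds were an adjusted p of 0.05, an unadjusted p of 0.05, and the latter with a fold over 2 of FPKM + 1. The procedure was tested on simulated data. Exact permutation tests used scipy 1.17.1. Relative depth was estimated by the commonest ratio between libraries among values below 0.15 FPKM, and intervals of counting error could not be given.

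The members and the gene lists were chosen with earlier results of these data known. Named genes were the members, Smn1, the 3 most abundant genes of each list, list genes at an unadjusted p under 0.05 with or without control replicate 2, and the 5 genes most like the members' mean pattern. Csf1, Il34, Cx3cl1, Tyrobp, Tgfb1, Spi1 and Irf8 were added as ligands, partners and factors of the members, and all other genes named were singled out after their values were seen. Klk1, a gene of the plasmacytoid dendritic cell list, was not found by name, and 1 gene of the list of resting microglia is not reported here. Alternatives were 4 other scalings, a pseudocount of 0.1, no filter or a minimum mean of 1 FPKM, robust eBayes, library weights, the replicate number as a block, and leaving out each library in turn.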

Additional observations from a re-analysis of the deposited data

How the results depend on the processing

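Over the 16 alternative settings, 0 of 144 log2 differences of the 9 members passed an unadjusted p of 0.05, and 20 had the other sign. Trem2, Sall1 and Fcrls kept their sign in all 16 settings. The other filters, robust eBayes and the replicate block change only the p-value of a gene and not its difference. The sign in those settings was therefore fixed in advance. Depth in reads is unknown, so the counting error of the low tier of members could not be given.

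With each library left out in turn, log2 differences ran from -0.07 to 0.12 for Cx3cr1, from -0.11 to 0.21 for P2ry12, from -0.04 to 0.16 for Tmem119, from -0.24 to 0.12 for Csf1r, from -0.30 to 0.08 for Aif1, from -0.01 to 0.21 for Siglech and from -0.20 to 0.01 for Smn1. It gave -0.17 to 0.27 for Cd200, -0.84 to 0.32 for Apoe, -0.17 to 0.06 for Pdgfra, -0.17 to 0.18 for Il34 and -0.61 to 0.06 for Tyrobp. The number of genes at an unadjusted p under 0.05 ranged from 125 to 862 lower and from 214 (without SMA replicate 3) to 1040 higher (without control replicate 3). With a fold over 2 it ranged from 16 to 144, and at an adjusted p from 0 to 2, the latter without control replicate 2. Fewer libraries enter each of these fits.

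Library weights gave control replicate 2 a weight of 0.103 and turned the differences to -0.09 for P2ry12, 0.00 for Tmem119, 0.08 for Csf1r, -0.12 for Cd200, 0.21 for Apoe and -0.12 for Il34, with 619 genes lower. Scaling to the neural list gave -0.11 for P2ry12, -0.03 for Tmem119, 0.00 for Siglech, -0.01 for Cd200 and -0.06 for Il34, with 19 genes past a fold of 2, and moved the median of all genes from 0.04 to -0.06. Median ratio scaling gave -0.05 for P2ry12 and -0.03 for Il34, and 567 genes lower with 529 higher. Rescaling to the same total gave 0.02 for Cx3cr1 and 387 genes lower with 336 higher, quantile normalization 0.01 for Cx3cr1, and a pseudocount of 0.1 gave 0.00 for Cx3cr1 and Il34 with 189 genes past a fold of 2. Without a filter 882 genes were higher. The cause of these moves was not tested.

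With the replicate block, 303 genes were lower and 356 higher, 48 of all genes passed with a fold over 2, and 0 of 9 members passed an unadjusted p of 0.05. Of the other genes named with a difference, Tgfb1, Cyba and Plac8 then passed it in limma at log2 differences of -0.66, -0.71 and -1.49, and Ctsb at -0.38 no longer did. Plac8 reached the filter only through the control libraries, so its p-value is not read as a result. Libraries with the same number correlated in their deviations from the group mean at -0.04, 0.02 and 0.08. Control replicate 2 enters the mean behind every control deviation, so these values are a weak check and cannot exclude pairing. The labels give only replicate numbers, and the numbers were not taken to pair the libraries.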
